A study of Mus musculus with 15 samples.

Results

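Rag1, Rag2 and Dntt are the genes whose products make V(D)J recombination specific to developing lymphocytes, and 3 histone marks were followed at these genes while pre-B cells were turned into macrophage-like cells. The genes were taken by name from the mouse annotation of build mm9, as 3 of the 22342 protein-coding gene starts on chromosomes 1 to 19 and X. Their tags were counted in 3 kb centred on each start and in 3 kb windows along the gene body and 100 kb on each side. The rule used no measured value, although earlier results of these data were known when the genes were chosen.

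RAG1 and RAG2 together form the recombinase that cuts DNA at the recombination signals flanking V, D and J segments, and terminal deoxynucleotidyl transferase, the product of Dntt, adds nucleotides without a template at the joins. The joins are sealed by the end joining machinery that every cell carries. Rag1 and Rag2 lie next to each other and are controlled in B cell precursors by shared upstream elements, of which Erag is the best described, and all of these genes are switched off in mature B cells. H3K27Ac marks active promoters and enhancers, H3K4Me1 marks enhancers whether or not they are active and the flanks of promoters, and H3K27Me3 is deposited by Polycomb at silent genes.

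The cells were C10, a derivative of the mouse pre-B cell line HAFTL that expresses C/EBPα fused to the estrogen receptor hormone-binding domain (C/EBPαER) together with GFP, so that estradiol moves the fusion protein into the nucleus. As the study describes them, all cells carried the construct, including those at 0 h, and came from this 1 derived line. Induced cells received, per the labels, 100 nM β-estradiol with 10 nM IL-3 and CSF-1 (the study's methods name a higher unit for the estradiol dose), and control cells received 0.1% ethanol. Chromatin immunoprecipitation sequencing libraries of H3K4Me1, H3K27Ac and H3K27Me3 were made at 0, 3, 12, 24 and 48 h post-induction (hpi), with 1 library per mark and time. There were therefore no replicates and no test was possible, so every interval given here is a 95% interval of counting error only, and differences between libraries of 1 time cannot be separated from differences between times.

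The 15 libraries held 11041458 to 31557475 deposited tags and were thinned to 10913733 positions for H3K4Me1, 15216488 for H3K27Ac and 15338280 for H3K27Me3, which gave a genome mean of 13.4, 18.6 and 18.8 tags per 3 kb. Within 40 kb of the start of Adam6b, in the immunoglobulin heavy chain locus, the H3K27Ac libraries of 0 and 3 hpi held 440 and 358 tags and the other 13 libraries 0 to 4. Per 3 kb, the counts of 440 and 358 were not above the genome mean of H3K27Ac. Those of the other 13 libraries were far below the mean of their mark. It is thus the near absence of tags in the 13 libraries that is unusual, not a surplus in the 2. Whether the cells of the 2 libraries differed from the rest was not tested. These 2 libraries stood apart from the rest, and the main H3K27Ac results below are also given between 12 and 48 hpi. The H3K27Ac library of 24 hpi held fewer tags in background bins, by 0.63 on the log2 scale against 0 hpi. The labelled cell type was checked on H3K27Ac at marker starts. At 0 hpi the 8 pre-B markers held 859 to 1710 tags, all 8 were at least 2-fold lower at 48 hpi, and 6 of 8 macrophage markers were at least 2-fold higher, while Tlr4 was less than 2-fold changed and Fcgr3 was lower (44 against 21 tags). Of the 7 T cell markers in the annotation, all but Lck (25) and Lat (71) had 12 tags or fewer at 0 hpi.

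Rag2 (ENSMUSG00000032864.3) lies on the plus strand of chr2:101464875-101472685 and Rag1 (ENSMUSG00000061311.6) on the minus strand of chr2:101478439-101489658, so the genes face each other with 5753 bp between their 3′ ends and 24783 bp between their starts. Dntt (ENSMUSG00000025014.6) lies on the plus strand of chr19:41103765-41134013. The start of B230118H07Rik is 31 bp from that of Rag1 on the same strand and its body runs across Rag2 and beyond, so tags at the Rag1 start cannot be assigned to 1 of those genes. The sequence before each start is shown because the tags described first were counted around it. It was read from the mm9 genome (NCBIM37) in the direction of transcription, as 250 bp for Rag2 (chr2:101464625-101464874, plus strand) and Dntt (chr19:41103515-41103764, plus strand) and as 219 bp for Rag1 (chr2:101489690-101489908, minus strand), where the bases nearest the start belong to an exon of B230118H07Rik and were left out. None of the sequences printed touches an annotated exon. Capitals mark matches to the 8 motifs searched on both strands, namely CANNTG (the E-box, bound by E2A proteins), CCCNNGGG (EBF), GTAAACA (forkhead factors such as FOXO1), TTGCNNAA (C/EBP), TGGGAA (Ikaros), GAGGAA (ETS factors), CCAAT and TATAAA.
Rag1 promoter: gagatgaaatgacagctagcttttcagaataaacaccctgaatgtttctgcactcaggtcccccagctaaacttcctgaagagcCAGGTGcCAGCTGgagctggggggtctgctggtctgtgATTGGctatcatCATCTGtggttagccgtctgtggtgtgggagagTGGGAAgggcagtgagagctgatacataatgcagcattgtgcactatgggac
Rag2 promoter: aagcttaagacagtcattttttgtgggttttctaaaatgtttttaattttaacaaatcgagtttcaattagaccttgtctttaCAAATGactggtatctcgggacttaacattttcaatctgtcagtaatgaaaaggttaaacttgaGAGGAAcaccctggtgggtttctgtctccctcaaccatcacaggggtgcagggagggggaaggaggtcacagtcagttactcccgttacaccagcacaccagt
Dntt promoter: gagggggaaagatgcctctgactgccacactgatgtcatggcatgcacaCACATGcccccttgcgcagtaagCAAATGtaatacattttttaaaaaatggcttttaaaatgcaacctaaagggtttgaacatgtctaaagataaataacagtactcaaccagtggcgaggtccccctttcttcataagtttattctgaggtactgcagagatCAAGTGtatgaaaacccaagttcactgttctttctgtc
E-box letters stood 3 times before Rag1 (from -166, -159 and -116 bp), once before Rag2 (from -167 bp) and 3 times before Dntt (from -201, -178 and -38 bp), and 63.4% of 22337 promoters of 250 bp held at least 1 match. The Rag1 sequence also held TGGGAA from -83 bp (21% of promoters) and CCAAT on the other strand from -128 bp (35.0%). The Rag2 sequence held GAGGAA from -103 bp, letters present in 23.1% of promoters. CCCNNGGG, GTAAACA, TTGCNNAA and TATAAA had no match in the 3 sequences, against 13.2%, 2.70%, 9.12% and 12.3% of all promoters. No 2 matches overlapped, and a match of these letters is not a binding site.

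H3K27Ac at the 3 starts was above the genome mean before induction and lower at the end. At 0 hpi Rag2 and Dntt stood above 93.8% and 93.4% of all starts and Rag1 above 68.3%. Rag1, the catalytic subunit of the recombinase, held 198, 47, 26, 23 and 29 tags at 0, 3, 12, 24 and 48 hpi. The count at 0 hpi was 10.6 times the genome mean, the intervals at 12 and 24 hpi included that mean, and at 48 hpi the lower bound was 19.4 tags against a mean of 18.6. Rag2, the partner subunit, held 589, 293, 230, 193 and 155 tags, so its level was 8.31 times the genome mean at 48 hpi. Dntt held 577, 520, 129, 102 and 68 tags. Rag2 and Dntt could not be ordered at 0 hpi, where their intervals overlapped (542 to 639 and 531 to 626), and both lay above Rag1 (171 to 228). At 48 hpi the order was Rag2 (132 to 181), Dntt (52.8 to 86.2) and Rag1 (19.4 to 41.6), with no overlap.

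**Figure D1:**
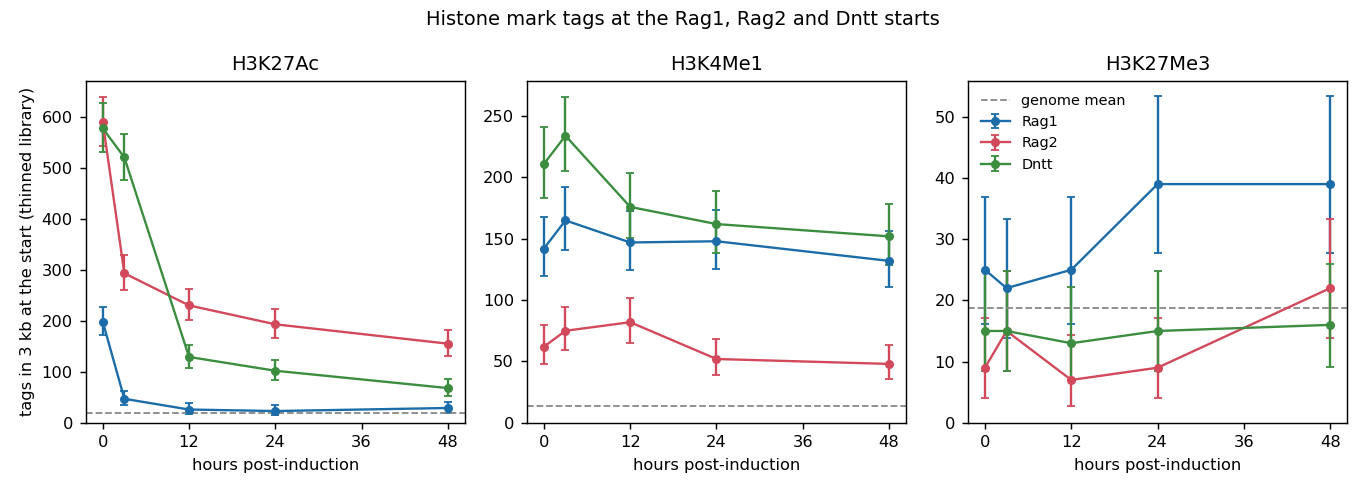
Tags in 3 kb at the starts of Rag1, Rag2 and Dntt (y axis) against hours post-induction (x axis) for H3K27Ac, H3K4Me1 and H3K27Me3, with exact 95% Poisson intervals as bars, 1 thinned library per point, and the genome mean as a dashed line. H3K27Ac of Rag1 and Rag2 is already lower at 3 hpi while that of Dntt is 520 at 3 hpi and 129 at 12 hpi; H3K4Me1 stays above the genome mean at all times.

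From 0 to 48 hpi the log2 change of H3K27Ac was -2.73 at Rag1 (interval -3.39 to -2.20), -1.92 at Rag2 (-2.19 to -1.67) and -3.07 at Dntt (-3.47 to -2.72). These correspond to counts 6.63, 3.78 and 8.38 times lower. The size depended on the width counted, with -2.61 for Rag2 in 1 kb and -2.10 for Dntt in 6 kb. All 3 starts thus passed the limit of at least 2-fold lower, which 15.6% of the 15420 starts with at least 10 tags passed, while 10.1% were at least 2-fold higher. The share of starts with a lower change than the gene's own was 0.863% for Rag1, 3.25% for Rag2 and 0.519% for Dntt. Over all starts the median log2 change was -0.19. A lower level in every cell and a loss in some of the cells cannot be told apart in these bulk libraries.

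At their starts, the recombinase genes and Dntt differed in when H3K27Ac was lower. Inside Dntt, the windows 6 and 9 kb from its start were at -0.74 and -0.62 from 0 to 3 hpi, so the contrast concerns the starts. Between 0 and 3 hpi the log2 change was -2.05 at Rag1 (-2.57 to -1.61), -1.005 at Rag2 (-1.21 to -0.80) and -0.15 at Dntt (-0.32 to 0.02). At Rag1 and Rag2 the counts were at least 2-fold lower, as at 4.36% of 16712 starts, and the interval of Dntt included 0. The interval of Dntt overlapped neither of the others. The call at Rag2 was marginal, since 589 against 293 tags is just past 2-fold, and scaling to the bins enriched at all times gave -0.88 and a window of 1 kb -0.90, both under 2-fold. By 12 hpi all 3 starts were at least 2-fold lower (log2 -2.88, -1.35 and -2.15), as were 6.48% of starts. At 3 hpi Rag1 had kept 23.7% of its tags, Rag2 49.7% and Dntt 90.1%, and at 12 hpi 13.1%, 39.0% and 22.4%. Between 12 and 48 hpi, without the 2 libraries that stood apart, the log2 change was 0.15 at Rag1 (-0.66 to 0.98), -0.57 at Rag2 (-0.87 to -0.27) and -0.91 at Dntt (-1.37 to -0.49). None was then at least 2-fold lower, against 8.66% of all starts. Rag1 was already near the genome mean at 12 hpi, so it had little room to be lower. The lower counts of Rag1 and Rag2 at 3 hpi lay between the 2 libraries that stood apart, whereas the step of Dntt from 520 to 129 tags lay between a library of that kind and one of the others. At that step, time and whatever set the libraries apart cannot be told apart. The same holds for every H3K27Ac change here from 0 hpi to 12, 24 or 48 hpi, also for windows and gene lists.

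In 1 kb bins from -3 to 3 kb of the Rag2 and Dntt starts, a stretch wider than the 3 kb counted above, the acetylation was not lower by the same factor everywhere. In the 1 kb after the Rag2 start H3K27Ac was 230, 135, 73, 32 and 18 tags (log2 -3.60 from 0 to 48 hpi, -4.46 to -2.98). In the 1 kb that ends 1 kb before the start it was 165, 64, 72, 89 and 95 tags (-0.79, -1.18 to -0.42). The 1 kb inside Rag2 thus had its lowest count at 48 hpi, while the upstream bin had its lowest at 3 hpi and a higher one at 48 hpi, and the intervals of the changes from 0 to 48 hpi did not overlap. At Dntt the 1 kb before the start went from 145 to 10 tags (-3.73, -4.95 to -2.94), and the bin from 2 to 3 kb inside the gene from 173 to 99 (-0.80, -1.18 to -0.44). At Rag1 all 6 bins of 1 kb from -3 to 3 kb were lower, with log2 values from -3.26 to -1.81.

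H3K4Me1 at the same starts was less than 2-fold changed. Rag1 held 142, 165, 147, 148 and 132 tags, Rag2 62, 75, 82, 52 and 48, and Dntt 211, 234, 176, 162 and 152 at 0, 3, 12, 24 and 48 hpi. The intervals of 0 and 48 hpi overlapped at Rag1 and Rag2, and at Dntt 183 to 241 against 129 to 178 did not. Rag1 and Dntt were among the starts with the most H3K4Me1, above 98.6% and 99.7% of all starts at 0 hpi, and were still above 98.5% and 99.1% at 48 hpi. The log2 change from 0 to 48 hpi was -0.10 at Rag1 (-0.46 to 0.25), -0.36 at Rag2 (-0.94 to 0.20) and -0.47 at Dntt (-0.78 to -0.17), beside a median of -0.35 over all starts. None of the 3 passed 2-fold in either direction, against 17.6% of 15689 starts lower and 5.79% higher. The sign of these small changes turned to 0.48, 0.22 and 0.11 when libraries were scaled by their background bins, so no direction is given. The marks cannot be set against each other from 0 hpi, since the H3K27Ac library of 0 hpi stood apart and the H3K4Me1 library did not. From 12 to 48 hpi the log2 changes of H3K4Me1 were -0.15 at Rag1, -0.76 at Rag2 and -0.21 at Dntt, beside 0.15, -0.57 and -0.91 for H3K27Ac.

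H3K27Me3 was below the limit of enrichment at the Rag2 and Dntt starts at all 5 times and at the Rag1 start up to 12 hpi. Rag1 held 25, 22, 25, 39 and 39 tags, Rag2 9, 15, 7, 9 and 22, and Dntt 15, 15, 13, 15 and 16, where 35 tags were needed for a window to count as enriched. The Rag1 window passed that number at 24 and 48 hpi, at 2.07 times the genome mean and above 87.4% and 85.0% of all starts. Rag2 was at least 2-fold higher at 48 than at 0 hpi (log2 1.20, 0.11 to 2.59), as 4.81% of 19865 starts were, but on 9 and 22 tags, both at or below 1.17 times the genome mean. The call held under other scalings (1.35 and 1.04), in 1 kb (1.14) and from 12 to 48 hpi (1.52, 0.37 to 3.12, on 7 and 22 tags). It was lost with a second random thinning (0.44), at full depth (0.83), in 6 kb (0.26) and with a pseudocount of 5 tags (0.95), so it is not counted as a change. The change was 0.62 at Rag1 (-0.12 to 1.43) and 0.09 at Dntt (-1.02 to 1.21), and 6.32% of starts were at least 2-fold lower. The lower H3K27Ac was thus not accompanied by H3K27Me3 above the level of enrichment at Rag2 and Dntt by 48 hpi.

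Around the genes, more windows passed the limit of enrichment for H3K27Ac and H3K4Me1 at Dntt than at Rag1 and Rag2, and fewer for H3K27Me3. With 4-fold over the mean as the limit, H3K27Ac at 48 hpi had 8 windows at the Rag genes and 7 at Dntt. H3K27Me3 then had 1 window in each stretch at 0 hpi and 2 in each at 48 hpi, so these differences depend on the limit. The Dntt stretch also takes in the body of Blnk, a pre-B marker of the list, where its acetylated windows from -69 to -36 kb lie. Of 74 windows over the joined Rag1 and Rag2 stretch, 15, 12, 10, 8 and 13 were enriched for H3K27Ac at 0, 3, 12, 24 and 48 hpi (at least 34 tags, a Poisson tail below 0.001). Of 75 windows around Dntt the numbers were 32, 30, 17, 17 and 17. Of all windows of the genome 5.98%, 6.11%, 6.98%, 7.26% and 8.77% were enriched, a share that was itself higher at later times. Windows enriched at 0 hpi kept 54.1%, 48.4%, 45.6% and 45.8% of their tags at the later times in the Rag stretch and 64.1%, 30.7%, 30.5% and 23.9% in the Dntt stretch. By 3 hpi 9 of the 15 Rag windows and 7 of the 32 Dntt windows were at least 2-fold lower, against 19.3% of the 52561 windows of the genome enriched at 0 hpi. By 48 hpi 10 of 15 and 29 of 32 were, against 33.8% of the genome. From 12 to 48 hpi, without the 2 libraries that stood apart, 0 of the 15 Rag windows and 5 of the 32 Dntt windows were at least 2-fold lower, against 11.9% of the genome. At 12 hpi only 9 of the 15 Rag windows and 16 of the 32 Dntt windows were still enriched, so the others had little room to be lower. Windows were picked on their 0 hpi count, which favours a lower count later, and the genome share carries the same choice. The windows of a locus neighbour each other and are not independent.

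**Figure D2:**
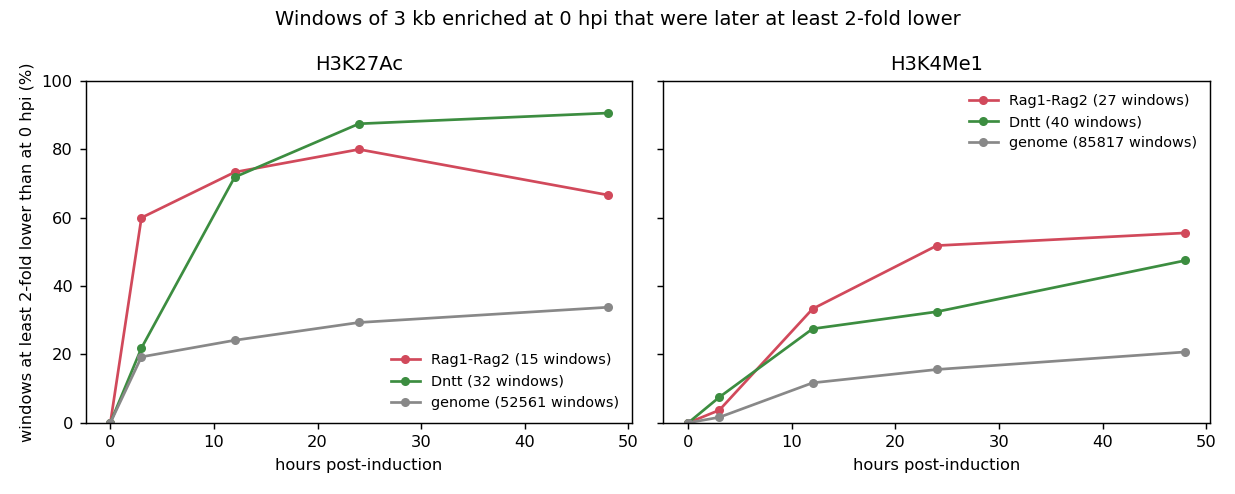
Percent of the 3 kb windows enriched at 0 hpi that were at least 2-fold lower later (y axis) against hours post-induction (x axis), for the Rag1 and Rag2 stretch, the Dntt stretch and the whole genome, 1 library per point. For H3K27Ac the Rag stretch is at 60% by 3 hpi while Dntt is near the genome, and both are above it from 12 hpi; for H3K4Me1 at 48 hpi the stretches are at 55.6% and 47.5% and the genome at 20.7%.

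H3K4Me1 was also lower in part of the same stretches. Of the 27 Rag windows enriched at 0 hpi, 1, 9, 14 and 15 were at least 2-fold lower at 3, 12, 24 and 48 hpi, and of the 40 Dntt windows 3, 11, 13 and 19. In the genome 1.61%, 11.7%, 15.6% and 20.7% of 85817 such windows were. Under scaling by background bins the counts at 48 hpi were 8 and 10, beside 7.79% of the genome. The windows enriched at 0 hpi kept 58.6% of their H3K4Me1 tags at 48 hpi around the Rag genes and 48.7% around Dntt, without that scaling. The background bins themselves held fewer H3K4Me1 tags at 48 than at 0 hpi, by 0.59 on the log2 scale, so these shares depend on the scale. Neither the timing nor the shares kept can be compared between the marks, since only the H3K27Ac libraries of 0 and 3 hpi stood apart.

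At 0 hpi the windows of the Rag stretch with the most H3K27Ac were the Rag2 start and the window at -24 kb of it, inside B230118H07Rik and without an exon (chr2:101439375-101442374). It held 549, 281, 147, 156 and 167 tags (log2 -1.71 from 0 to 48 hpi, -1.98 to -1.46). The window centred at the published distance of the Erag enhancer, 22 kb before the Rag2 start, overlaps it and the next window and held 369, 186, 94, 93 and 192 tags. Its count at 48 hpi was thus higher than at 12 and 24 hpi, and was 52.0% of that at 0 hpi. H3K4Me1 there was 105, 98, 83, 39 and 47 tags, without such a return. Positions of published elements were taken as round distances and were not set by the data.

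Among the windows of the Rag stretch enriched at 0 hpi, the return was strongest in that at -21 kb. By 1 kb bins it lay on both sides of the distance taken for Erag. The bins from -23 and -22 kb held 24 and 10 H3K27Ac tags at 12 hpi and 62 and 67 at 48 hpi. In the window at -21 kb (chr2:101442375-101445374) H3K27Ac was 80, 61, 16, 26 and 115 tags, so the count at 48 hpi was above those at all earlier times. Its log2 change was 2.77 from 12 to 48 hpi (2.08 to 3.70) and 0.52 from 0 to 48 hpi (0.10 to 0.95), and its H3K4Me1 was 94, 90, 65, 31 and 34 tags. In the windows at -6 and -3 kb H3K27Ac was 228, 78, 91, 62 and 144 and 334, 151, 89, 65 and 117 tags. An annotated protein-coding start other than that of Rag2 lies 672 bp from the centre of the window at -3 kb. Another lies 582 bp from the centre of the window at 3 kb. Both windows are in the body of B230118H07Rik, so their tags cannot be assigned to Rag2. From 24 to 48 hpi 4 of the 15 windows were at least 2-fold higher (those at -21, -6, 3 and 27 kb, of which the one at 3 kb counted 8 against 17 tags), against 4.93% in the genome. Scaled by background bins, which allows for the fewer background tags at 24 hpi, only the window at -21 kb of the 15 was, against 1.15%. From 12 to 48 hpi 2 of 15 were (-27 and -21 kb, the first on 12 against 25 tags), against 5.67%. Scaling by background bins gave 2.88 from 12 and 1.46 from 24 hpi at -21 kb, and moving that window by 1.5 kb either way gave 0.76 and 1.44 from 12 hpi. The second rests on few tags, with 3, 0 and 3 at 12 hpi in the 1 kb bins from -21, -20 and -19 kb and 8, 7 and 3 at 48 hpi. At 0 hpi these bins held 7, 12 and 6 tags. The bins from -24, -23 and -22 kb held 267, 164 and 29 tags at 0 hpi and 87, 62 and 67 at 48 hpi. Of these bins only that from -22 kb was clearly above 0 hpi, so the rise over 0 hpi depends on where the window lies. At the Rag2 start itself there was no return, with 230, 193 and 155 tags at 12, 24 and 48 hpi.

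The 300 bp with the most H3K27Ac at 0 hpi in the window at -24 kb (chr2:101441775-101442074, plus strand) and with the most at 48 hpi in the window at -21 kb (chr2:101442675-101442974, plus strand) are shown because these neighbours ended on different sides of their 0 hpi level. The first held 131, 43, 38, 27 and 33 tags at full depth and the second 20, 21, 2, 8 and 36. Capitals mark the same motifs as at the promoters. The labels give the windows, and the GAGGAA match of the first stretch lies from -22924 bp of the Rag2 start.
Rag2 -24 kb: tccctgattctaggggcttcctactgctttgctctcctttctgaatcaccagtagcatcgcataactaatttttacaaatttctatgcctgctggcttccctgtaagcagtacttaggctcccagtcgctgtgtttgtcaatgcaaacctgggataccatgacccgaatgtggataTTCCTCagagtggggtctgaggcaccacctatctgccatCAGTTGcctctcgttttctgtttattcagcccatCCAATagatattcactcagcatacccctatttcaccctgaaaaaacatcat
Rag2 -21 kb: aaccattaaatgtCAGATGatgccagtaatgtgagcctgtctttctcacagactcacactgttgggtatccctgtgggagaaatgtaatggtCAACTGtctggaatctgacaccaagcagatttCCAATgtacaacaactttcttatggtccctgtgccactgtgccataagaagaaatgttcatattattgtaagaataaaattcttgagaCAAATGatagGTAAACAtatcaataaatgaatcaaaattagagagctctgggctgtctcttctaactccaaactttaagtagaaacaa
The first held GAGGAA on the other strand, an E-box and CCAAT once each. The second held 3 E-boxes, CCAAT and 1 match of GTAAACA, the forkhead letters, from -21978 bp of the Rag2 start. Over the 38185 distal windows of the genome enriched for H3K27Ac at 0 hpi, each at its 300 bp with the most H3K27Ac at 0 hpi, 82.3% held an E-box, 29.3% GAGGAA, 30.6% CCAAT and 4.63% GTAAACA. TTGCNNAA, the C/EBP letters, had no match in either, against 11.7%. The genome stretches may touch exons, and the second sequence was picked at 48 hpi and not at 0 hpi, so for it these shares are not a like-for-like background.

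**Figure D3:**
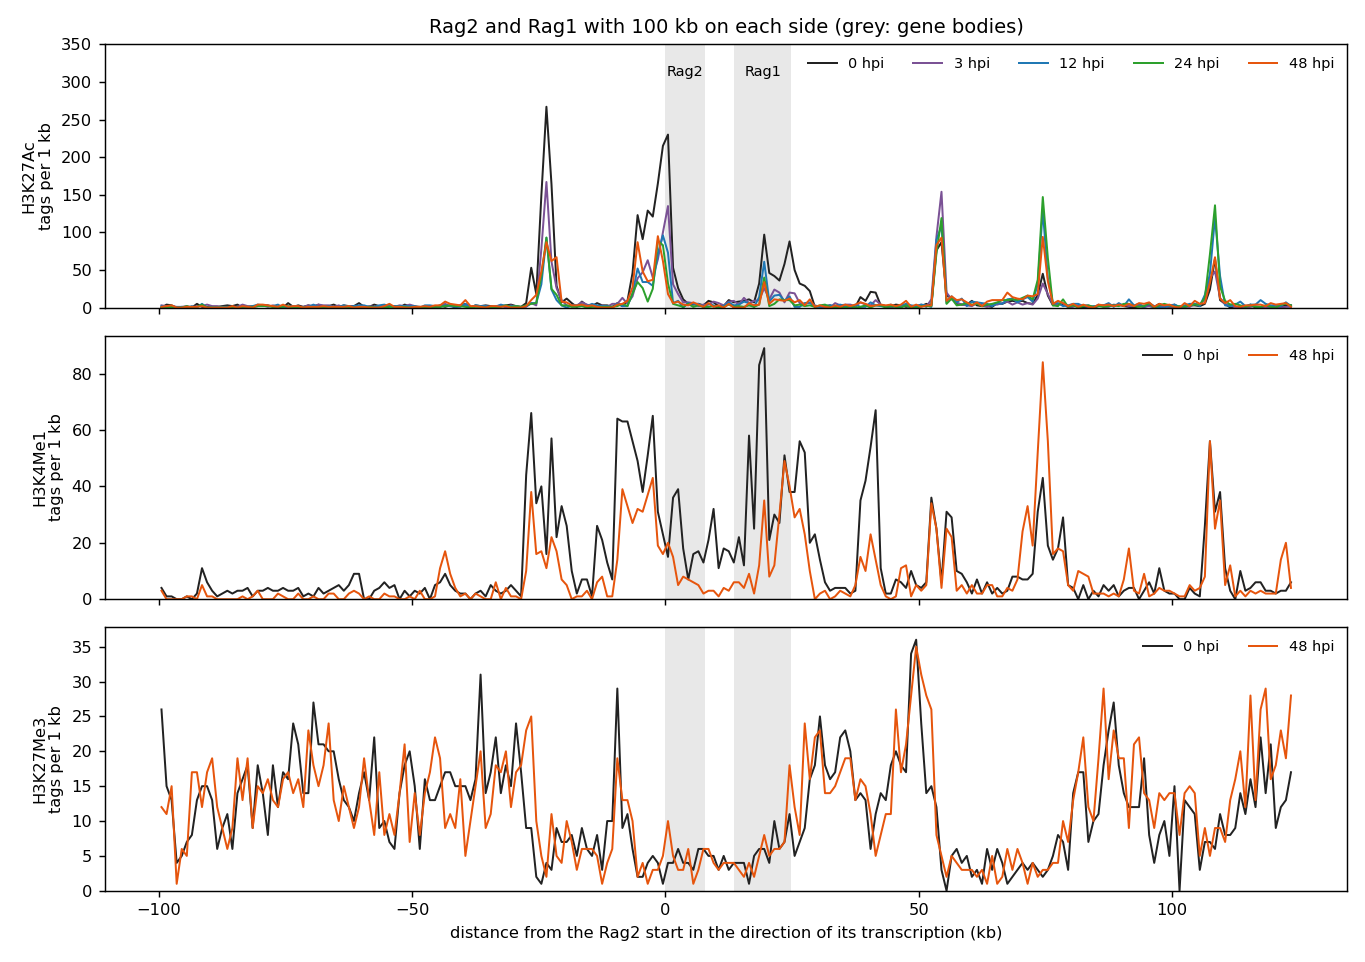
Tags per 1 kb (y axes) of H3K27Ac at 5 times and of H3K4Me1 and H3K27Me3 at 0 and 48 hpi, against distance from the Rag2 start in kb (x axis), with the bodies of Rag2 and Rag1 in grey. H3K27Ac peaks near -24 kb, before the Rag2 start and at Rag1 are lower after 0 hpi, those near 54, 75 and 108 kb are not, and H3K27Me3 is low across the Rag genes and higher on both sides.

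Other elements described at this locus differed in their marks. The window at the published distance of the D3 element, 8 kb before the Rag2 start, held much H3K4Me1 (191, 221, 140, 109 and 98 tags) and little H3K27Ac (29, 29, 9, 13 and 23 tags, below enrichment at every time). The stretch of the anti-silencer element, described 73 to 83 kb before Rag2, had no such marks. Its H3K27Ac was 0.31 and 0.35 times the genome mean at 0 and 48 hpi and its H3K4Me1 0.70 and 0.16 times, while H3K27Me3 was 2.46 and 2.31 times. Within the Rag1 gene, the windows at 18 and 21 kb from the Rag2 start, inside Rag1, went from 98 and 162 to 31 and 37 H3K27Ac tags. H3K4Me1 at 18 kb was 193, 128, 57, 46 and 39 tags, a lower level by 12 hpi that the Rag1 start did not show.

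Beyond the Rag genes the stretch reaches the neighbours Traf6, which encodes a signalling adaptor of Toll-like receptors, and Prr5l. The Traf6 start held 171, 269, 200, 193 and 181 H3K27Ac tags. The window at 75 kb, near the 3′ end of Traf6, held 72, 58, 194, 240 and 143 H3K27Ac tags and 87, 122, 205, 195 and 181 H3K4Me1 tags, so both were higher at 48 than at 0 hpi (log2 0.98, 0.57 to 1.42, and 1.05, 0.68 to 1.44). The window at 108 kb, in Prr5l, held 100, 106, 203, 238 and 108 H3K27Ac tags. None of the 3 windows enriched at 0 hpi on this side was at least 2-fold lower at 48 hpi, whereas 10 of the 12 from -27 to 42 kb were.

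H3K27Me3 was enriched in parts of the Rag stretch on both sides of the genes. Windows enriched for it numbered 35, 34, 38, 41 and 40 of 74 at 0, 3, 12, 24 and 48 hpi, beside 12.4%, 12.2%, 13.1%, 13.8% and 13.9% of the genome, so the later counts were higher in both. At full depth the Rag counts were 39 at 0 hpi and 40 at 48 hpi. No window from -7.5 to 28.5 kb of the Rag2 start, which takes in both genes and the Rag1 start, was enriched at 0, 3 and 12 hpi. That gap ended at 22.5 kb at 24 hpi and at 25.5 kb at 48 hpi, so it was shorter by 2 windows and by 1 window on the side of the Rag1 start. At 24 hpi this rested on the window at 24 kb, with 39 tags, since the one at 27 kb held 34 and was not enriched. Away from this gap, windows from -24 to -12 kb (8 to 24 tags) were not enriched at 0 hpi either. Nor were those over Traf6, from 54 to 78 kb (8 to 23 tags). The window at -24 kb held 8 tags at 0 and 19 at 48 hpi, the latter at the genome mean. Its neighbour at -27 kb held 27, 45, 62, 59 and 64 H3K27Me3 tags and 71, 11, 12, 13 and 25 H3K27Ac tags. Past the Rag1 start, the window at 27 kb held 25, 26, 32, 34 and 43 H3K27Me3 tags and 104, 27, 15, 10 and 26 H3K27Ac tags. Whether the 2 marks are linked there was not tested.

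At Dntt the acetylated windows ran upstream to Blnk and downstream into the gene. Blnk encodes an adaptor of the pre-B cell receptor and its start lies 34740 bp upstream on the other strand. Inside Dntt the window at 9 kb (chr19:41111265-41114264) held 742, 482, 195, 146 and 87 H3K27Ac tags (log2 -3.08 from 0 to 48 hpi, -3.43 to -2.77). The window at 6 kb held 457, 273, 106, 106 and 61 tags. The window at 3 kb, in the first intron, held 400, 334, 229, 191 and 164 tags (-1.28, -1.56 to -1.02), a smaller change than at the start and at 9 kb on non-overlapping intervals. From 12 to 48 hpi the window at 9 kb was also lower (-1.16, -1.55 to -0.79), and 0 of the 32 windows were at least 2-fold higher, against the 5.67% given above.

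The 300 bp of the window at 9 kb with the most H3K27Ac at 0 hpi outside exons lies in the first intron (chr19:41111265-41111564, plus strand) and held 79, 78, 32, 21 and 13 tags at full depth. It is shown because that window was the Dntt window with the most H3K27Ac away from Blnk. The label gives the window, whereas the 300 bp lie at its upstream edge, with an E-box from 7555 bp of the Dntt start. The 1 kb bin from 7 kb, which crosses that edge, held 332 H3K27Ac tags at 0 hpi. The 300 bp are thus not shown to be a peak.
Dntt +9 kb: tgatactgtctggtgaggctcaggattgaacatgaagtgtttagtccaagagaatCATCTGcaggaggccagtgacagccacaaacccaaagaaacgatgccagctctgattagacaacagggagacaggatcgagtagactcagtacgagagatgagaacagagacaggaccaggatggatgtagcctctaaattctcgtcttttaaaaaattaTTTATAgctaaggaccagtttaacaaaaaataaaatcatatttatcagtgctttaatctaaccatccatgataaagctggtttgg
It held 1 E-box and TATAAA on the other strand (16.0% of the distal 300 bp stretches), and no match of TTGCNNAA, GTAAACA or CCCNNGGG.

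Upstream of Dntt, windows differed in H3K27Ac at 3 hpi. The window at -18 kb held 274, 65, 17, 12 and 18 tags (log2 -2.06 from 0 to 3 hpi) and the window at -15 kb 112, 37, 13, 8 and 19. The window at -3 kb held 302, 435, 179, 157 and 62 tags, with its highest count at 3 hpi. At -6 kb the counts were 384, 263, 57, 29 and 27. Windows inside Blnk were not lower at 3 hpi at -57, -54 and -48 kb (133 against 150, 82 against 87 and 145 against 146 tags), and at -45 kb the count was at least 2-fold higher (45 against 104). The 7 windows at least 2-fold lower at 3 hpi were those at -66, -63, -30, -21, -18, -15 and 69 kb, and none lay from -12 to 30 kb of the start. As a count, 7 of 32 was near the 19.3% of the genome. Under scaling by background bins 14 of the 32 were at least 2-fold lower, beside 29.7% of the genome. That scaling adds -0.30 to the log2 change at 3 hpi. The windows at -12, 6, 12 and 24 kb, at -0.85, -0.74, -0.75 and -0.89 without it, then pass 2-fold. Both the count and the place of these windows thus depend on the scale.

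**Figure D4:**
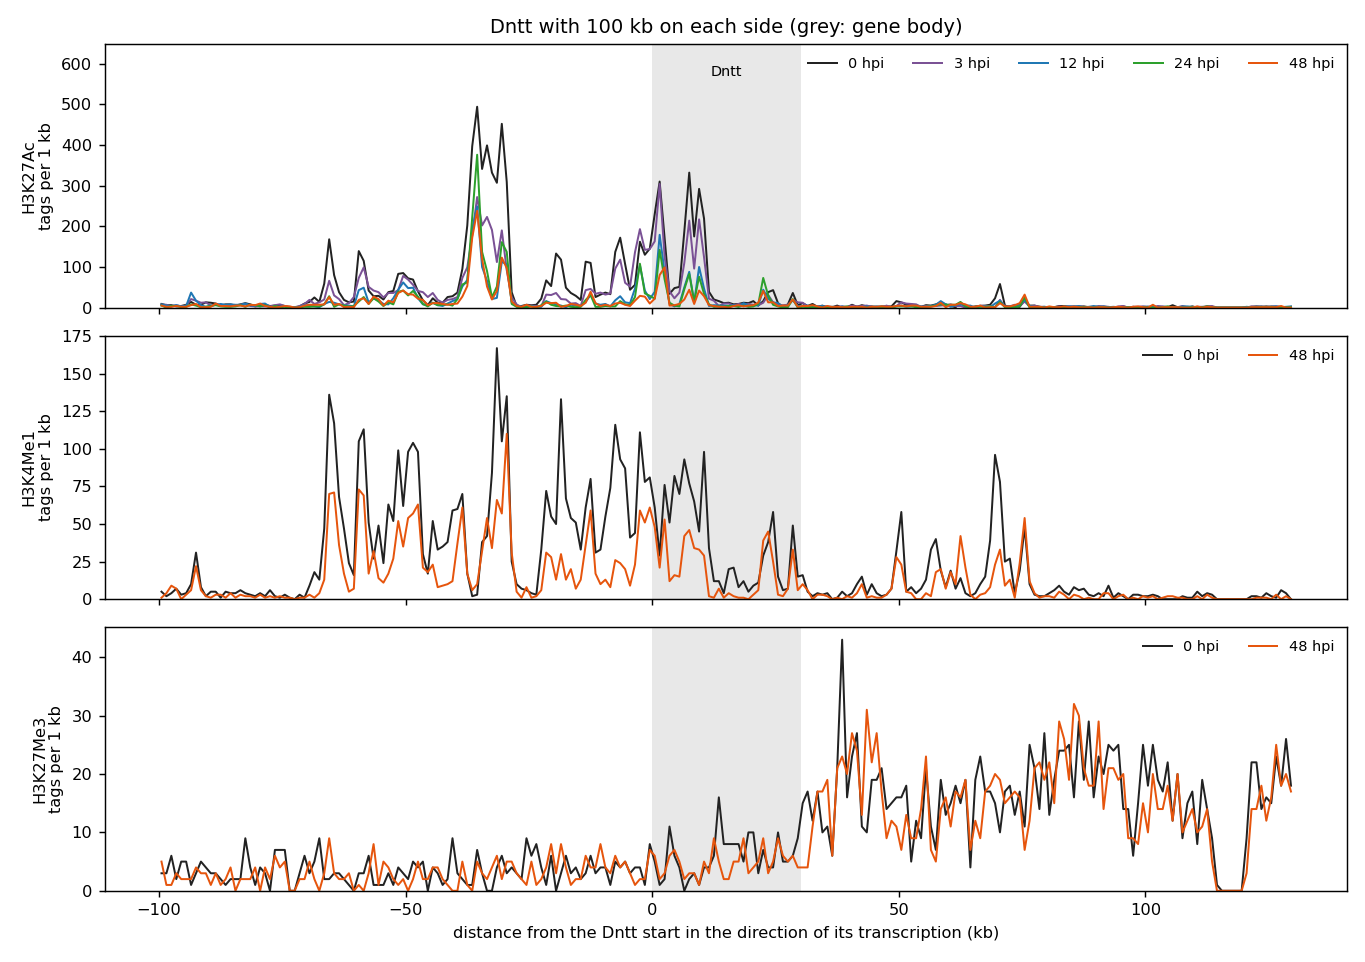
Tags per 1 kb (y axes) of H3K27Ac at 5 times and of H3K4Me1 and H3K27Me3 at 0 and 48 hpi, against distance from the Dntt start in kb (x axis), with the Dntt body in grey. H3K27Ac is lower over Dntt and its upstream side at 48 hpi, H3K4Me1 there is lower but present, and H3K27Me3 is higher on the downstream side at both times, apart from a short stretch near 115 to 120 kb with almost no tags of any mark.

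Nearest to Blnk, the window over its start (-36 kb) held 1144, 617, 530, 718 and 514 H3K27Ac tags and the window at -30 kb, between the genes, 915, 362, 239, 328 and 255. The window at -33 kb held 1091, 554, 131, 189 and 125. In the 3 kb centred on the Blnk start, counted as for Dntt, H3K27Ac was 1227, 686, 445, 641 and 439 tags, a log2 change of -1.48 (-1.64 to -1.32) against -3.07 (-3.47 to -2.72) at Dntt. Opalin, a gene of myelinating cells downstream of Dntt, had 10 H3K27Ac tags at its start at 0 hpi and 7 at 48 hpi. H3K27Me3 was enriched in 28, 24, 26, 28 and 23 of the 75 windows, beside the 12.2% to 13.9% of the genome given above. At 0, 3, 12 and 48 hpi no window from -97.5 kb, the upstream edge of the stretch, to 31.5 kb was among them, so the body of Dntt lay on the unmarked side. At 24 hpi the window at 30 kb, over the 3′ end of Dntt, held 35 tags and was enriched, against 33 at 0 hpi and 14 at 48 hpi.

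The genes that process and seal the joins act in every cell. Of 18 end joining and processing genes, 6 were at least 2-fold lower in H3K27Ac at 48 hpi and 0 higher, beside the 15.6% and 10.1% of all starts given above, with a median log2 change of -0.68 against -0.19 over all starts. The 6 were Prkdc, the DNA-dependent kinase (-1.07), the polymerases Poll (-1.02) and Polm (-1.14), the DNA-bending proteins Hmgb1 (-1.50) and Hmgb2 (-2.12), and the histone gene H2afx (-1.39). Scaling to bins enriched at all times gave 3 of the 18 genes, beside 8.78% of all starts under that scaling. From 12 to 48 hpi 2 of the 18 were lower, close to the 8.66% of all starts. Xrcc6 and Nhej1 held 7 tags each at 0 hpi and were at background at the start counted. Both were at -0.68, so the median of the list falls on these starts. Only the outermost annotated start of each gene was counted, so acetylation at another start of these genes would not be seen. The ligase Lig4 (-0.33), the Ku subunit Xrcc5 (-0.37) and the hairpin nuclease Dclre1c (-0.08) were less than 2-fold changed, and Xrcc4, the partner of the ligase, was at 0.41. At 3 hpi, when Rag1 was at -2.05, the 18 starts lay between -0.47 and 0.70, the latter at Nhej1 on 7 against 12 tags.

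Of 16 transcription factors known to act on Rag or Dntt control, 10 were at least 2-fold lower in H3K27Ac at 48 hpi and 0 higher, beside 15.6% and 10.1% of all starts, with a median of -1.36 against -0.19. The lowest was Ikzf3 (Aiolos), with 696, 456, 159, 136 and 52 tags (log2 -3.72, -4.18 to -3.33). Myb held 765, 998, 456, 267 and 94 tags (-3.01) and Lef1 1153, 941, 495, 474 and 214 (-2.42). Foxo1, an activator of the Rag genes, held 889, 625, 398, 410 and 276 (-1.68), Tcf3, which encodes E2A, 1147, 775, 607, 637 and 489 (-1.23), and Pax5 1069, 848, 661, 572 and 265 (-2.01). Gata3, a factor of T cells, was higher at 48 than at 0 hpi (274 against 479 tags, 0.80) without reaching 2-fold. Ets1 held 7 and 13 tags at the outermost start, the only start of it that was counted. From 12 to 48 hpi 6 of the 16 were at least 2-fold lower, beside 8.66% of all starts. Ebf1 and Pax5 stand in this list and among the pre-B markers. The 6 genes used in every cell had 0 of 6 past 2-fold and a median of -0.46, and all 8 pre-B markers were lower with a median of -1.60, where Rag1 and Dntt were below each pre-B marker of the list (lowest -2.01) and Rag2 within their range. From 12 to 48 hpi this order was not seen: 4 of the 8 pre-B markers were at least 2-fold lower, with a median of -1.08, and 0 of the 3 genes (0.15, -0.57 and -0.91). The starting counts differed, with 445 to 1344 tags at the pre-B markers and 26 to 230 at the 3 genes at 12 hpi. Rag1, at 26 tags, was near the genome mean and had little room to be lower.

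**Figure D5:**
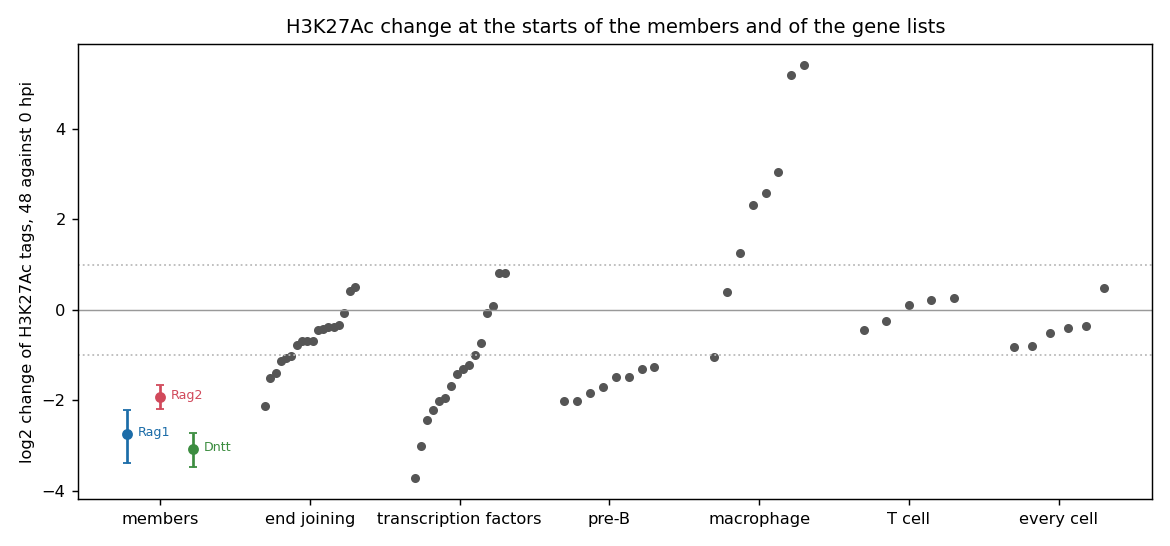
Log2 change of H3K27Ac tags at gene starts from 0 to 48 hpi (y axis) for Rag1, Rag2 and Dntt with 95% counting intervals and for the gene lists (x axis), 1 point per gene with at least 10 tags, dotted lines at 2-fold. The 3 members lie between -3.07 and -1.92, the 18 end joining starts between -2.12 and 0.50, and the 6 starts used in every cell between -0.81 and 0.49.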

How the data were processed

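Members and gene lists were chosen with earlier results of these data known. The authors aligned Illumina reads to mm9 with Eland or Bowtie (version not given in the sources used here) without mismatches and removed identical and non-unique tags. The deposited values are positions, 1 line of chromosome, start and end per tag of 36 bp and no strand, so counts were made here by counting lines. They hold no normalized values and none of the fold changes of the study.

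One tag per position was kept, placed 18 bp from its start, on chromosomes 1 to 19 and X, and each library was thinned to the smallest of its mark. Starts were those of GENCODE vM1 (22342 protein-coding genes), for each gene the outermost start of its protein-coding transcripts. Levels are tags over the mean of mappable windows. Changes are log2 with a pseudocount of 1 tag, for starts with at least 10 tags at both times together, and "at least 2-fold" is a limit of size, not a test. Intervals are exact Poisson for counts and exact conditional binomial (Clopper-Pearson) for ratios, and cover counting error only. A window was enriched with a Poisson tail below 0.001 (27, 34 and 35 tags per 3 kb for H3K4Me1, H3K27Ac and H3K27Me3). Named were the genes, the genes whose starts lie in their stretches, per locus the 3 distal windows with the most H3K27Ac at 0 and at 48 hpi, the windows with the most tags of each mark, the nearest 3 profiles and the gene lists. Other windows, bins and the 300 bp stretches were named after their values were seen. Ptcra of the T cell list had no start in the annotation. Python 3.11.15, numpy 2.4.6, scipy 1.17.1 and pandas 2.3.3 were used, and the scripts were tested on simulated counts.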

Additional observations from a re-analysis of the deposited data

How the results depend on the processing

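No paired analysis was possible because the design gave 1 library to each mark at each time, with no replicate numbers. Of 224 values recomputed under 16 settings, 181 stayed within their counting interval or, for counts and shares, within 1.5 times, 42 moved further and 1 change past 2-fold turned its sign. That one was H3K27Ac at the Rag1 start, 0.15 between 12 and 48 hpi against -2.73 from 0 hpi; over the same span Rag2 gave -0.57 and Dntt -0.91. The cause was not tested. Alternatives for 3 and 12 hpi, for windows at least 2-fold lower or higher, for the lists and for the window at -21 kb of Rag2 were chosen after seeing the data. With libraries scaled by background bins, H3K4Me1 from 0 to 48 hpi was 0.48 at Rag1, 0.22 at Rag2 and 0.11 at Dntt, H3K27Ac from 0 to 3 hpi was -1.31 at Rag2 and -0.45 at Dntt, and 6.43% of starts were at least 2-fold lower in H3K4Me1 and 3.91% in H3K27Me3. The counts of windows at least 2-fold lower were then 14 for H3K27Ac at Dntt at 3 hpi, and for H3K4Me1 0 and 8 at the Rag genes and 1 and 10 at Dntt at 3 and 48 hpi. The 2-fold call of H3K27Me3 at Rag2 (1.20) was lost with a second thinning (0.44), at full depth (0.83), with tags as deposited (0.83), in 6 kb (0.26) and with a pseudocount of 5 (0.95). Scaling by bins enriched at all times gave -1.59 for H3K27Ac at Rag2 at 48 hpi and -0.88 at 3 hpi, where it was then under 2-fold (as with a window of 1 kb, -0.90), 8.78% of starts at least 2-fold lower in H3K27Ac, and 3 end joining genes. Windows of 1 kb gave 0.53 for H3K4Me1 and -2.61 for H3K27Ac at Rag2, -0.88 for H3K4Me1 at Dntt and -2.82 for H3K27Ac at Dntt from 0 to 12 hpi. Windows of 6 kb gave -2.10 and -1.28 for H3K27Ac at Dntt at 48 and 12 hpi. With 4-fold over the mean as the limit, enriched windows at 48 hpi numbered 11 (H3K4Me1), 8 (H3K27Ac) and 2 (H3K27Me3) at the Rag genes and 22, 7 and 2 at Dntt, and H3K27Me3 had 1 window at 0 hpi in each stretch. A flank of 50 kb left 15 and 15 H3K27Me3 windows at the Rag genes and 15 and 12 at Dntt at 0 and 48 hpi, fewer because fewer windows were counted. A grid shifted by 1.5 kb gave 0 windows at least 2-fold lower in H3K4Me1 at Dntt at 3 hpi. Another annotated start far enough from the one used existed for none of the 3 genes, so that alternative was not run. Counting error was largest for H3K27Me3, where the starts held 7 to 39 tags.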

Other observations

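Windows enriched for H3K27Ac or H3K4Me1 at 48 hpi but not at 0 hpi numbered 5 in the Rag stretch and 3 in the Dntt stretch. Around the Rag genes they were 4 for H3K27Ac, all in Traf6 (at 57, 66, 69 and 72 kb from the Rag2 start, with 28, 17, 23 and 22 tags at 0 hpi and 35, 38, 37 and 46 at 48 hpi), and 1 for H3K4Me1 in Prr5l (11 and 37 tags at 123 kb). Around Dntt they were 1 for H3K27Ac, at 75 kb in Tll2 (27 and 49 tags), and 2 for H3K4Me1, at 63 kb in Tll2 (21 and 65 tags) and at the Blnk start (25 and 41 tags). None of these lay in Rag1, Rag2 or Dntt. For H3K27Me3 there were 7 such windows in the Rag stretch (at -93, -27, 27, 84, 96, 99 and 102 kb from the Rag2 start) and 0 in the Dntt stretch. The 7 held 34, 27, 25, 30, 22, 29 and 26 tags at 0 hpi and 40, 64, 43, 36, 39, 39 and 37 at 48 hpi. Several thus lay close to the 35 tags needed. At full depth the Rag stretch had 39 enriched windows at 0 hpi and 40 at 48 hpi. As shares of the windows not enriched at 0 hpi, these were 6.78% and 2.33% for H3K27Ac (Rag and Dntt stretch; genome 4.25%), 2.13% and 5.71% for H3K4Me1 (genome 4.25%) and 17.9% and 0% for H3K27Me3 (genome 4.66%), on 35 to 59 windows each that neighbour one another.

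The protein-coding starts whose levels were most like those of each gene over the 15 libraries, by the root mean square distance of log2(level + 0.1) and leaving out starts within 3 kb of the gene (which leaves out B230118H07Rik, whose tags are nearly all those of Rag1), were Stard10 (0.44), Dmwd (0.47) and Cdkl1 (0.53) for Rag1, Sh3pxd2a (0.29), Ust (0.33) and Cdc7 (0.35) for Rag2, and Atp2b4 (0.46), Nup160 (0.52) and Rab44 (0.53) for Dntt. The median distance to all starts was 2.68, 2.60 and 2.85. Stard10 held 168, 42, 23, 29 and 38 H3K27Ac tags at 0, 3, 12, 24 and 48 hpi, beside the 198, 47, 26, 23 and 29 of Rag1. It was picked for its closeness over these same libraries, so the likeness follows from the choice. Rag1 and Rag2 were 1.81 apart, Rag2 and Dntt 1.07, and Rag1 and Dntt 1.41, so the 2 recombinase genes were the least alike pair of the 3 by this measure.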
